A study of Mus musculus with 9 samples.

Results

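Rn45s, the row for the 45S precursor of ribosomal RNA, was described in sorted mouse macrophages. Beside it stood 9 genes of ribosomal RNA transcription and processing: Polr1a, Polr1b, Ubtf, Rrn3, Ncl, Npm1, Fbl, Nop56 and Nop58. The 10 genes were taken by gene symbol, and all 10 were among the 14905 genes of the deposited table. Rn45s was chosen because earlier results of these data showed it to differ between the genotypes, so its values are given below as a description, with no test; the other 9 were chosen by function. The libraries came from cells of visceral adipose tissue that a fluorescence-activated sort took as positive for F480 and CD11b, the products of Adgre1 and Itgam. Nucb2-/- mice gave 5 libraries (KO) and wild-type mice gave 4 (WT), and both groups were of the C57BL/6 strain. The series concerns obesity and insulin sensitivity, but the labels do not say what these mice were fed. Neither age nor sex is stated in the labels, and whether each library came from its own mouse is not stated either, so the p-values measure the spread between libraries, which may be partly technical.

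Ribosomal RNA is made in the nucleolus from many repeated gene copies. RNA polymerase I, led there by the promoter-binding factor UBTF and the initiation factor RRN3, copies them into a long 45S precursor. Small nucleolar RNA particles (snoRNPs) then modify the precursor, and assembly factors and nucleases cut it and build it into the small and large ribosomal subunits. Growing cells and activated macrophages depend on this supply of ribosomes. The precursor is not given a poly(A) tail as messenger RNA is. These libraries were made from RNA selected on oligo-dT beads, so Rn45s reads here are those that came through that selection. Mature ribosomal RNAs are cut from the precursor and share its sequence, so the row does not tell precursor from mature RNA. Its level is therefore not a measure of ribosomal RNA production.

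The libraries held between 51148951 and 85200102 reads as worked out from the spacing of the deposited values. Of these, 6 were deeper, with at least 74937707 reads (KO replicates 1 to 4, WT replicates 1 and 2), and 3 were shallower, with at most 55004984 (KO replicate 5, WT replicates 3 and 4). Nucb2 averaged 1500 ± 219 normalized counts over the 5 KO libraries and 4313 ± 791 over the 4 WT ones (SD), so the transcript was lower and still present in KO (log2 difference -1.52; limma, adjusted p = 0.00054); in the deeper libraries alone the difference was -1.61 and was not called (adjusted p = 0.116). Adgre1 averaged 91199 ± 5643 in KO and 106114 ± 8809 in WT, and Itgam 23739 ± 1945 in KO and 20943 ± 1097 in WT (SD). The summed level of 8 macrophage markers ran from 1095670 to 1242210 normalized counts in KO and from 1143920 to 1291640 in WT. Of the 8, 0 were called. At an unadjusted p under 0.05, 1 was higher and 3 were lower in KO, where 5.37% and 3.78% of all genes were. Ranges were separate in 2 of the 8, both lower in KO, against 1.6% of all genes. C1qa, a complement component that tissue macrophages make, averaged 25246 ± 3932 in KO and 35388 ± 3044 in WT (log2 difference -0.50; limma, adjusted p = 0.0667), and Fcgr1, an antibody receptor, averaged 10015 ± 1208 in KO and 14253 ± 2765 in WT (log2 difference -0.50; limma, adjusted p = 0.123), both without overlap of the groups. The sum of 5 fibroblast markers, Dcn foremost, ran from 263548 to 410182 in KO and from 184990 to 309465 in WT. Dcn averaged 249667 ± 44462 in KO and 183147 ± 43786 in WT, above Adgre1 in both (log2 difference 0.46; limma, adjusted p = 0.256). Of the 5, 0 were called, and 2 were higher in KO at an unadjusted p under 0.05, where 5.37% of all genes were. Genes typical of fibroblasts were thus read in both groups.

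All 5 KO libraries had less Rn45s than the lowest WT library. The row had normalized counts of 1244830, 1435650, 1308460, 1329800 and 1198710 in KO replicates 1 to 5, against 1987630, 2464700, 1840070 and 2023560 in WT replicates 1 to 4. The highest KO value lay below the lowest WT value, and the WT libraries were spread more widely, with a coefficient of variation of 6.93% in KO and 12.9% in WT. The log2 difference, KO minus WT, was -0.67 (SE 0.08), a fold of 0.63. The row was the third highest of the table in every library.

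As a share of all normalized counts, Rn45s took 1.86%, 2.16%, 1.99%, 2.01% and 1.84% in KO replicates 1 to 5, against 2.90%, 3.54%, 2.64% and 2.85% in WT replicates 1 to 4. The mean share was 1.97% ± 0.129 in KO (SD, n = 5) and 2.98% ± 0.385 in WT (SD, n = 4). The 95% Wilson intervals reached at most 0.0045 percentage points to either side, which covers counting error only, so the spread between libraries and not the depth sets the error of these shares. Without Rn45s, the normalized counts of a library summed to 64.8 ± 0.700 in KO and 67.6 ± 0.995 in WT (units of 1e6, SD). Among the shallower libraries, KO replicate 5 at 1198710 lay below WT replicates 3 and 4 at 1840070 and 2023560, and among the deeper ones the log2 difference was -0.74. Reads of the repeated copies cannot be placed on one of them, and how shared reads were counted is not given in the sources used here.

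**Figure D1:**
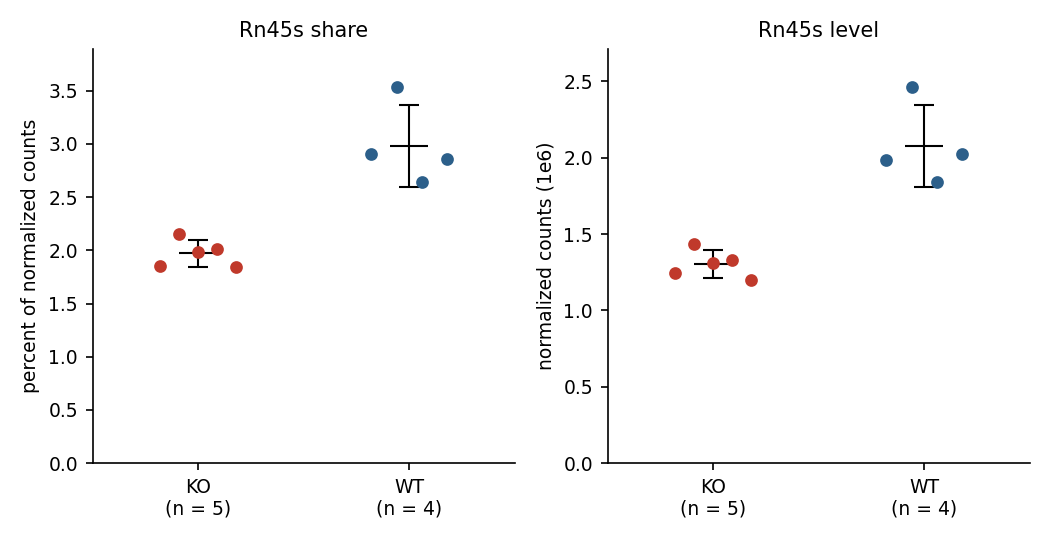
Rn45s in each library, as a percent of all normalized counts (left axis, percent) and as normalized counts in units of 1e6 (right axis), for 5 KO and 4 WT libraries. Points are libraries, and bars show the mean and SD; the KO shares lie between 1.84% and 2.16% and the WT shares between 2.64% and 3.54%.

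Of the other 9 genes 0 were called by limma, fitted to all 14905 genes and adjusted over them at 0.05, where 46 genes (0.309%) were called, 0.181% as higher in KO and 0.127% as lower. At an unadjusted p under 0.05 there were 3 of the 9, where 9.14% of all genes reached that level. Ubtf and Nop58 had higher means in KO, as 5.37% of all genes did at that level, and Rrn3 a lower one, as 3.78% did. Ranges of the groups were separate in 2 of the 9, against 3.15% of all genes: Ubtf was higher in KO, as 1.55% of all genes were, and Rrn3 lower, as 1.6% were. Adjusted p-values of the 9 ran from 0.298 to 0.996. A p that misses the threshold does not show that levels were equal, so the interval of each difference is given below.

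The catalytic subunits of polymerase I were unevenly measured. Polr1a, the largest subunit (chromosome 6, 71909053 to 71984935, plus strand, mm10), had 1514, 980, 370, 1025 and 1594 normalized counts in KO replicates 1 to 5, against 757, 1159, 999 and 1069 in WT replicates 1 to 4. The KO libraries held both its highest and its lowest value, and the WT values lay between them. The log2 difference was -0.01, with a 95% interval from -0.77 to 0.75 (limma, adjusted p = 0.996), and it was 0.34 without KO replicate 3.

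Polr1b, the other catalytic subunit (chromosome 2, 129100995 to 129126594, plus strand), had 432, 489, 368, 274 and 302 normalized counts in KO replicates 1 to 5, against 347, 494, 84.8 and 271 in WT replicates 1 to 4. The ranges overlapped, and WT replicate 3 stood far below every other library. KO minus WT, Polr1b stood at 0.54 on the log2 scale, with an interval from -0.52 to 1.59 (limma, adjusted p = 0.793). Without WT replicate 3 it was 0.02.

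The 2 initiation factors had ranges that did not overlap, in opposite directions. Ubtf, which encodes the factor that binds the ribosomal gene promoter (chromosome 11, 102304560 to 102319742, minus strand), had 1955, 1956, 1907, 1773 and 2054 normalized counts in KO replicates 1 to 5, against 1559, 1707, 1413 and 1222 in WT replicates 1 to 4. Every KO value lay above every WT value. On the log2 scale KO differed from WT by 0.40, with an interval from 0.06 to 0.73 (limma, unadjusted p = 0.024, adjusted p = 0.442), and it was 0.22 in the deeper libraries alone.

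Rrn3, whose product carries polymerase I to the promoter (chromosome 16, 13780708 to 13814839, plus strand), had 5288, 5246, 5299, 5242 and 4791 normalized counts in KO replicates 1 to 5, against 6261, 6430, 5945 and 5954 in WT replicates 1 to 4. Every KO value lay below every WT value, as in Rn45s. The log2 difference was -0.25, with an interval from -0.45 to -0.05 (limma, unadjusted p = 0.018, adjusted p = 0.391).

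The start regions of Rrn3, of Nop58, which had the smallest p of the 9, and of Ncl, whose means were close, are shown for their sequence context, 250 bases before to 50 after the RefSeq start (GRCm38.p6, the assembly that mm10 names). Capitals mark CACGTG, the E-box that MYC and related factors bind, and GGGCGG or its reverse complement CCGCCC, which SP1 binds. They lie at chr16:13780449-13780748 (plus strand, Rrn3), chr1:59684756-59685055 (plus strand, Nop58) and chr1:86359406-86359705 (minus strand, Ncl).
Rrn3: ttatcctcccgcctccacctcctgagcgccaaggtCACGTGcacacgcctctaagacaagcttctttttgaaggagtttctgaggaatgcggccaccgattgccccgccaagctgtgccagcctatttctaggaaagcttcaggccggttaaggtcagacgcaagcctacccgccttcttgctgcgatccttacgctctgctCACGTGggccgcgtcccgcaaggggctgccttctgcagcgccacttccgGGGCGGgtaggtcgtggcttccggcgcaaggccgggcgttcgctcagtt
Nop58: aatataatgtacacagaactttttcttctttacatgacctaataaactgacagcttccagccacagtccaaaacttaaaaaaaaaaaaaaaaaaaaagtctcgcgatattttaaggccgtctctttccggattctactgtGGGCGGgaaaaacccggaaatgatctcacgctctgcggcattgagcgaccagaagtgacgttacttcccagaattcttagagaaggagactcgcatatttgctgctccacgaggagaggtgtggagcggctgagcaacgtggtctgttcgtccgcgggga
Ncl: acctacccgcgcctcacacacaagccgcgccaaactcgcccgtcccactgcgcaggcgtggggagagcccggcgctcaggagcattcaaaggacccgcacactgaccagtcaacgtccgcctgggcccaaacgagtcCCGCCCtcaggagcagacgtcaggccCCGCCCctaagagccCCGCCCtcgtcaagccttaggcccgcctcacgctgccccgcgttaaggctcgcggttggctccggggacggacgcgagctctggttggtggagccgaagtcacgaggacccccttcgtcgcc
RefSeq gave 12 windows for 7 of the 10 genes, 6 of them for Ubtf, and 8 motifs were searched in them on both strands; these 2 were chosen for display after the matches were seen. CACGTG stood in 1 of the 12 windows, that of Rrn3, 215 and 48 bases before the start, and is in 7.15% of the 32851 mouse windows. GGGCGG or its reverse complement stood in 10 of the 12, of which 5 belong to Ubtf, and in 35.7% of all windows. CCAAT stood in 3 of the 12 (37.4% of all) and CTCTTTCC in 1, that of Nop58 (3.12%). TATAAA (13.6%), ACCGGAAG (2.3%), the NRF1 motif (6.23%) and the YY1 motif (0.633%) had no match among the 12. A match is a description of the letters and not of binding.

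Among the nucleolar proteins that act on the precursor, Ncl encodes nucleolin, which binds nascent precursor (chromosome 1, 86344719 to 86359400, minus strand), and had 18906, 16181, 19454, 20560 and 21261 normalized counts in KO replicates 1 to 5, against 18929, 20905, 18967 and 19544 in WT replicates 1 to 4. The WT values lay within the KO range. The log2 difference was -0.03, with an interval from -0.21 to 0.16 (limma, adjusted p = 0.942).

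Npm1 encodes nucleophosmin, a chaperone of ribosome assembly (chromosome 11, 33152287 to 33163206, minus strand), and had 45984, 45663, 44949, 44877 and 46151 normalized counts in KO replicates 1 to 5, against 48293, 47036, 45832 and 46014 in WT replicates 1 to 4. The libraries stood close together, and the ranges overlapped. The log2 difference was -0.04, with the narrowest interval of the 9, from -0.16 to 0.09 (limma, adjusted p = 0.865).

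Fbl, Nop56 and Nop58 encode core proteins of the box C/D snoRNPs, which add methyl groups to the precursor, fibrillarin being the methyltransferase. Fbl (chromosome 7, 28169710 to 28179269, plus strand) had 1527, 1425, 1627, 1759 and 2072 normalized counts in KO replicates 1 to 5, against 1775, 1580, 2010 and 1941 in WT replicates 1 to 4. The WT values lay within the KO range, and the log2 difference was -0.13, with an interval from -0.48 to 0.23 (limma, adjusted p = 0.846).

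Nop56 (chromosome 2, 130274430 to 130279313, plus strand) had 7898, 7833, 6716, 5279 and 6774 normalized counts in KO replicates 1 to 5, against 7479, 7091, 6278 and 6399 in WT replicates 1 to 4. Its WT values also lay within the KO range, and the log2 difference was 0.01, with an interval from -0.25 to 0.27 (limma, adjusted p = 0.989).

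Nop58 (chromosome 1, 59684971 to 59719044, plus strand) had 8548, 7190, 9368, 7782 and 11879 normalized counts in KO replicates 1 to 5, against 7008, 7244, 6956 and 5340 in WT replicates 1 to 4. The ranges overlapped by 1 pair, KO replicate 2 below WT replicate 2. The log2 difference was 0.42, with an interval from 0.12 to 0.72 (limma, unadjusted p = 0.0089, adjusted p = 0.298), and it was 0.20 in the deeper libraries alone.

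The lower bound of the interval lay above the Rn45s difference of -0.67 in 8 of the 9 genes, and Polr1a, at -0.77, was the exception. Whether each of these differences departs from that of Rn45s was not tested. Per kilobase of the principal transcript, Npm1 was highest, at 27878 ± 359 in KO and 28655 ± 693 in WT, and Ubtf, Polr1a and Polr1b were the lowest 3, with Polr1b at 93.3 ± 22.2 in KO and 74.9 ± 42.6 in WT (normalized counts per kilobase, SD). The order of Nop58, Nop56, Ncl, Rrn3 and Fbl between them changed with the transcript length used and is not given.

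**Figure D2:**
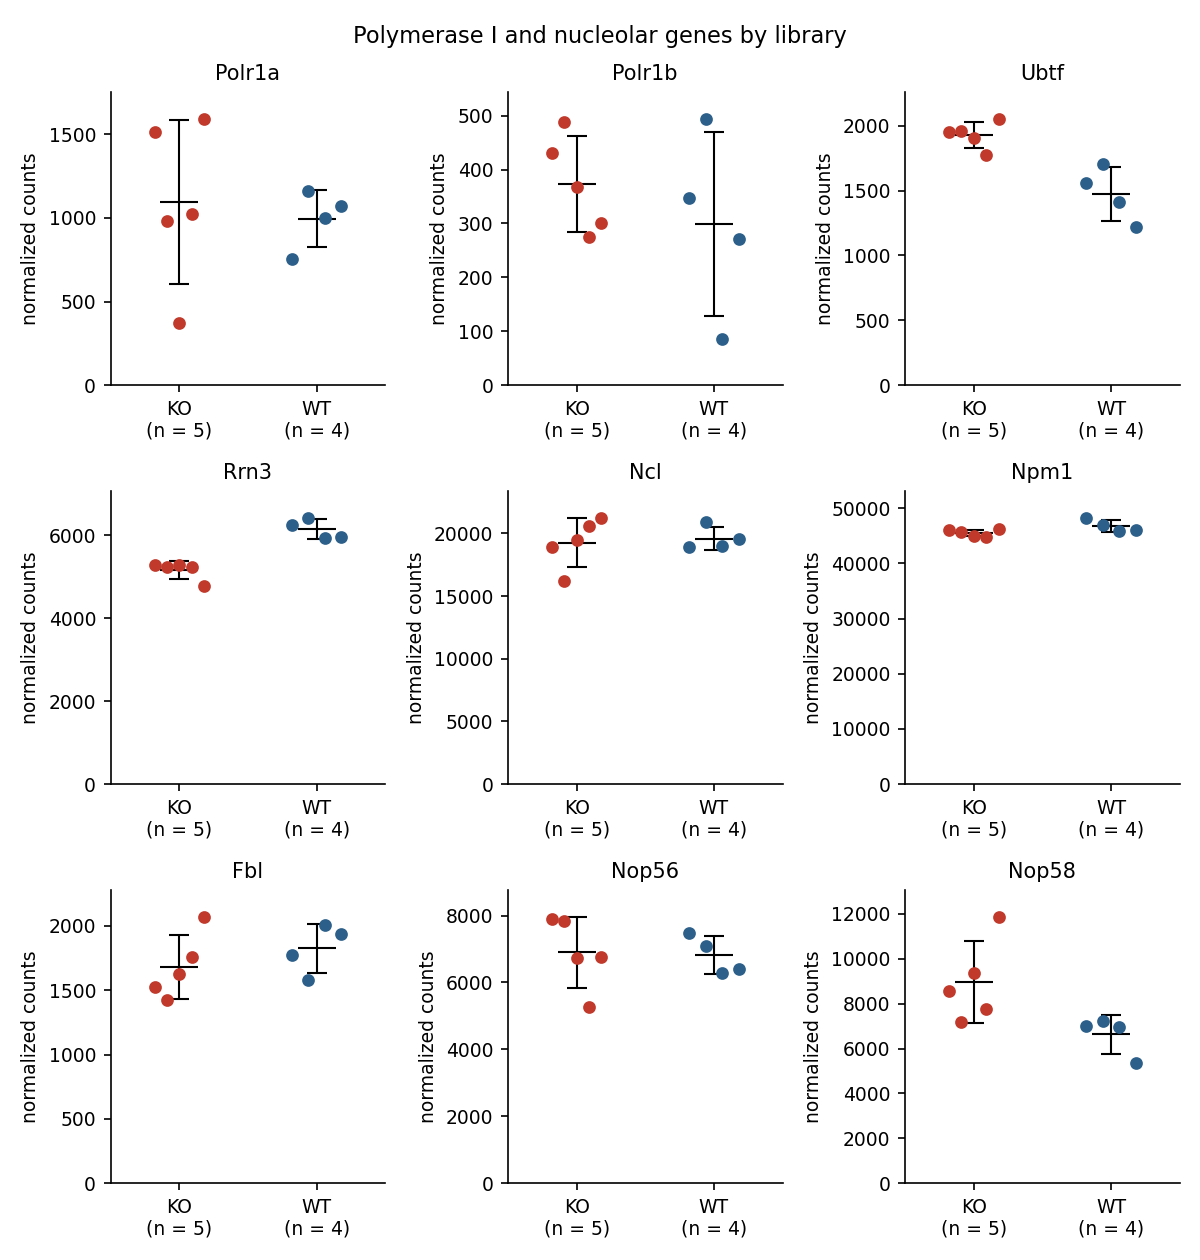
Normalized counts of the 9 polymerase I and nucleolar genes in each library, for 5 KO and 4 WT libraries, with a linear axis from 0 in each panel. Points are libraries, and bars show the mean and SD; the groups do not overlap in Ubtf, where KO is higher, and in Rrn3, where KO is lower.

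The wider machinery was read from lists of genes by function. Of the 15 measured genes of polymerase I and its factors, which include Polr1a, Polr1b, Ubtf and Rrn3, 0 passed the adjusted threshold in limma. At an unadjusted p under 0.05, 1 was higher and 1 lower in KO, where 5.37% and 3.78% of all genes were. These were Ubtf and Rrn3, already counted above. The median log2 difference of the 15 was 0.11, against 0.02 over all genes. This median did not keep its sign: leaving out KO replicate 2 gave -0.0067, leaving out WT replicate 3 gave -0.00056, and the deeper libraries alone gave -0.03. Polr1e, a polymerase I subunit, averaged 644 ± 199 normalized counts in KO and 413 ± 60.2 in WT (log2 difference 0.60; limma, adjusted p = 0.591). Twistnb, another subunit, averaged 882 ± 309 in KO and 1197 ± 354 in WT (log2 difference -0.45; limma, adjusted p = 0.688).

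Polymerase III, which makes 5S ribosomal RNA and transfer RNAs, had 0 of 22 genes past the adjusted threshold and 3 lower at an unadjusted p under 0.05, where 3.78% of all genes were, with a median of -0.13. Those 3 were Polr3k, Gtf3c3 and Polr3c, with log2 differences of -0.28, -0.54 and -0.46. Among the 6 subunits and factors shared between polymerases, 0 passed and the median was -0.11. At an unadjusted p under 0.05, 1 of the 6 was lower, where 3.78% of all genes were. Ranges were separate in 1 of the 6, with KO lower, against 1.6% of all genes. In both counts it was Polr2k, at 2588 ± 455 in KO and 3271 ± 150 in WT (log2 difference -0.36; limma, adjusted p = 0.487). The 23 measured regulators of ribosomal RNA transcription also had 0 past the adjusted threshold, 0 at an unadjusted p under 0.05 and a median of 0.02. Among them Myc, which drives ribosome production and was named after its value was seen, averaged 6109 ± 1006 in KO and 6014 ± 641 in WT (log2 difference 0.01; limma, adjusted p = 0.982).

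Of 20 snoRNP genes 0 passed, and the median was -0.00. Nufip1, an assembly factor of box C/D particles, averaged 1148 ± 265 in KO and 1708 ± 109 in WT, with ranges that did not overlap (log2 difference -0.61; limma, adjusted p = 0.31). In the small subunit processome, the particle that forms on the nascent precursor, 0 of 48 passed. At an unadjusted p under 0.05, 4 were lower, where 3.78% of all genes were. Below 0 lay 32 of the 48, against 7096 of all 14905 genes. The groups did not overlap in 2 of the 48, 1 in each direction, against 3.15% of all genes. Pdcd11, named after its values were seen, averaged 726 ± 103 in KO and 494 ± 58.7 in WT (log2 difference 0.55; limma, adjusted p = 0.549). Riok2, a kinase of late small subunit maturation, averaged 1363 ± 497 in KO and 2242 ± 266 in WT (log2 difference -0.81; limma, adjusted p = 0.285).

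Of 55 large subunit assembly factors 0 passed, with a median of -0.01. At an unadjusted p under 0.05, 1 was higher and 3 were lower, where 5.37% and 3.78% of all genes were. Rrp15 averaged 985 ± 187 in KO and 1463 ± 141 in WT, without overlap (log2 difference -0.59; limma, adjusted p = 0.314). Nucleases of precursor processing, 21 in number, and 17 host genes of small nucleolar RNAs had 0 genes past the adjusted threshold and 0 at an unadjusted p under 0.05, with medians of -0.08 and 0.02.

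The 84 cytosolic ribosomal protein genes had 0 past the adjusted threshold and 8 lower at an unadjusted p under 0.05, where 3.78% of all genes were lower at that level. Of the 84, 78 lay below 0, against 7096 of all 14905 genes, with a median of -0.09. That median came to -0.03 when libraries were rescaled to their total without Rn45s. The same rescaling moved the median of all genes from 0.02 to 0.08. Ranges were separate with KO lower in 9 of the 84, against 1.6% of all genes, and with KO higher in 0. Rps29, a small subunit protein, averaged 55795 ± 1853 in KO and 65055 ± 1788 in WT (log2 difference -0.22; limma, adjusted p = 0.168). Of 20 cell cycle genes 0 passed, and their median was -0.05.

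**Figure D3:**
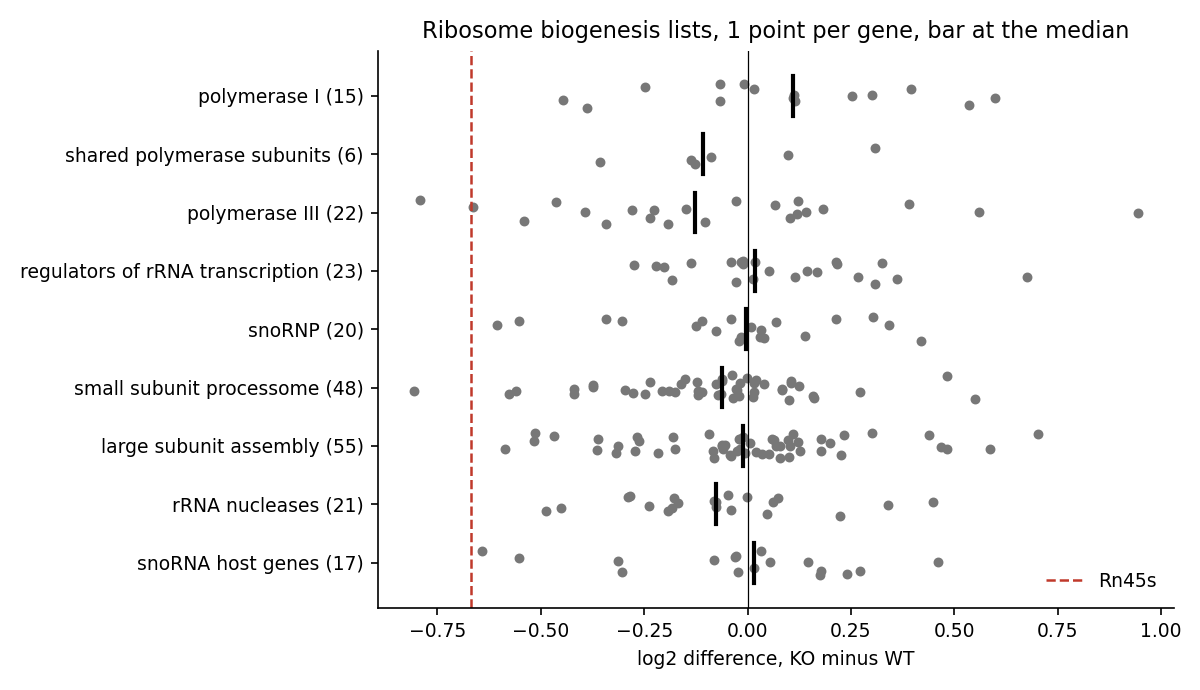
Log2 difference, KO minus WT, of each measured gene in 9 lists of ribosome biogenesis, with the number of genes in brackets. Points are genes, black bars are list medians, and the dashed line is Rn45s at -0.67; the medians lie between -0.13 and 0.11.

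Rn45s was set beside rows listed by symbol as RNAs that lack a poly(A) tail or stay in the nucleus. The amount of such RNA passing bead selection could vary from library to library. These rows did not share a direction as deposited, and the part of bead selection in the Rn45s difference was not tested. Of 50 such rows 0 passed the adjusted threshold, 21 lay above 0 and 29 below, and the median was -0.04. With quantile normalization the median was -0.31, and it was above 0 with other settings, at 0.02 when rescaled to the total without Rn45s. The same rescaling put the median of all genes at 0.08, against 0.02 in the fit reported. Grouping the 50 rows by class was done after their values were seen. The 37 histone rows had 17 above and 20 below 0, and summed to between 8487 and 9756 normalized counts in KO and between 8322 and 10758 in WT. Of these rows Hist1h2bc alone averaged 4112 ± 139 in KO and 4519 ± 913 in WT (SD). Whether the histone transcripts lack a poly(A) tail in these cells was not tested. The 10 small nucleolar RNA rows had 3 above and 7 below 0 and a median of -0.31, and summed to between 167 and 243 in KO and between 210 and 281 in WT; their reads may in part be those of the host transcripts they lie in.

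Rpph1, the RNA of ribonuclease P, had 394, 265, 232, 272 and 229 normalized counts in KO replicates 1 to 5, against 85.9, 158, 105 and 99.6 in WT replicates 1 to 4. Every KO value lay above every WT value, the reverse of Rn45s (log2 difference 1.31, SE 0.48; limma, adjusted p = 0.364). It was the 1 row of the 50 with an unadjusted p under 0.05, where 9.14% of all genes had one. Ranges were separate with KO higher in 2 of the 50 and with KO lower in 1, against 1.55% and 1.6% of all genes. Rpph1 overlaps Ccnb1ip1 on the same strand, so its reads are uncertain. Rmrp, the RNA of the related ribonuclease MRP, which cuts the ribosomal precursor, was named after its values were seen and had 17.2, 4.23, 4.93, 1 (the floor) and 2.55 in KO replicates 1 to 5, against 5.48, 17.5, 11.4 and 9.55 in WT replicates 1 to 4. These few counts overlapped (log2 difference -1.09; limma, adjusted p = 0.805).

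Of the nuclear long RNAs, Malat1 averaged 143372 ± 22944 in KO and 138318 ± 33828 in WT (log2 difference 0.07; limma, adjusted p = 0.914). Neat1 averaged 7690 ± 984 in KO and 6560 ± 1562 in WT (log2 difference 0.25; limma, adjusted p = 0.642). Of 14 symbols listed as overlapping or resembling ribosomal RNA, the table held 1, Lars2, the mitochondrial leucyl-tRNA synthetase.

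Lars2 had 204647, 222940, 190604, 190263 and 168130 normalized counts in KO replicates 1 to 5, against 222364, 265635, 224278 and 233038 in WT replicates 1 to 4. The groups overlapped by 1 pair, KO replicate 2 just above WT replicate 1 (log2 difference -0.28, SE 0.08; limma, unadjusted p = 0.0039, adjusted p = 0.221). Per kilobase Lars2 stood 56.8 times above the highest of 16 other mitochondrial tRNA synthetases, a comparison made after its level was seen, and 29.6 times with the union of exons as length. The mouse Lars2 row is known to gather ribosomal RNA reads; no sequence used here shows that likeness, and whether its reads are ribosomal was not tested.

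**Figure D4:**
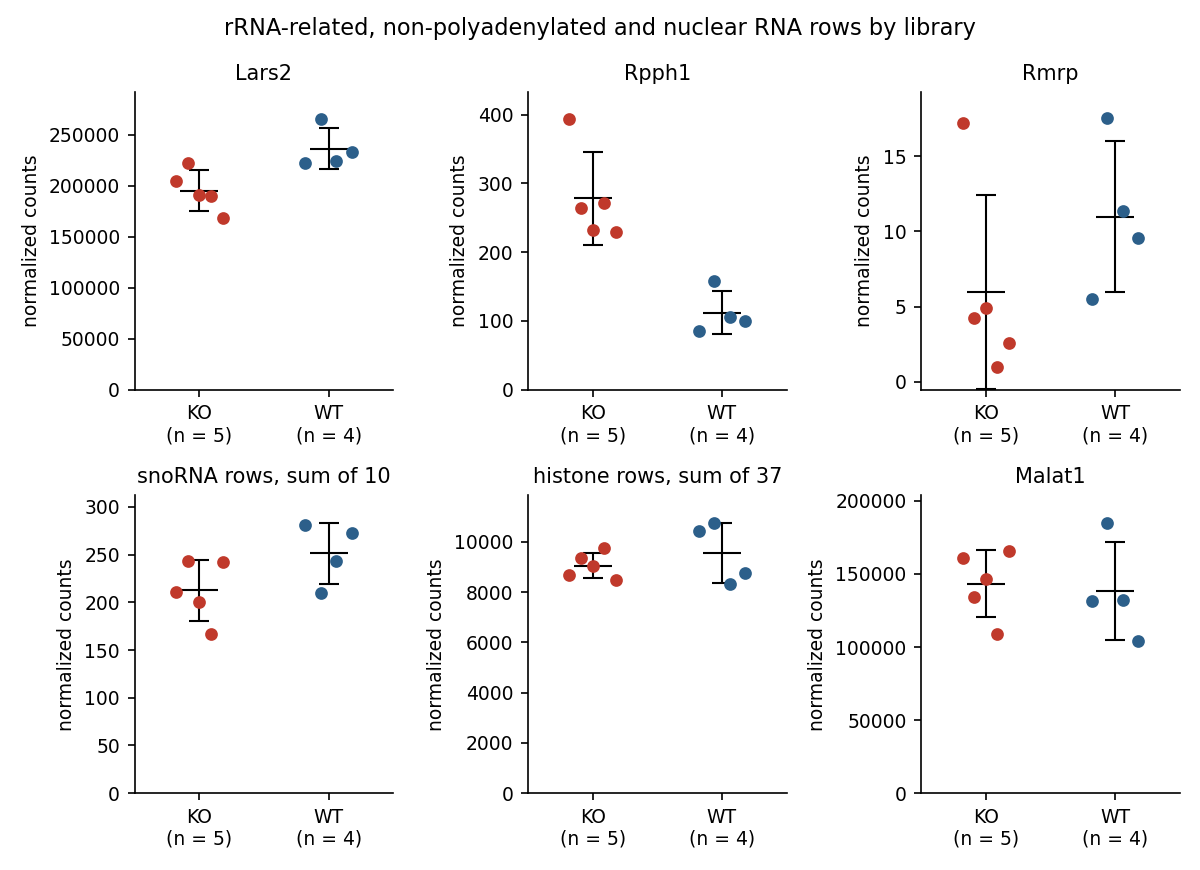
Normalized counts by library, for 5 KO and 4 WT libraries, of Lars2, Rpph1, Rmrp, Malat1 and the summed small nucleolar RNA and histone rows, on linear axes. Points are libraries, and bars show the mean and SD; KO lies above WT without overlap in Rpph1 and overlaps WT in the other panels.

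Markers of other cell types differed between the same libraries. All 6 mast cell markers had lower means in KO and 4 passed (Tpsb2, Cma1, Cpa3 and Fcer1a; limma, adjusted p = 0.0092 to 0.022), and their sum ran from 1510 to 2727 normalized counts in KO and from 5156 to 9417 in WT, with Fcer1a at the floor of 1 in every KO library. None of these 4 calls held in the deeper libraries alone, where 0 of all 14905 genes were called. The log2 differences there were -2.21 (Tpsb2), -2.01 (Cma1), -2.68 (Cpa3) and -5.58 (Fcer1a). Over all 9 libraries they were -1.87, -1.64, -2.42 and -5.54. Of 9 fits that each left out 1 library, Tpsb2 was called in 2, Cma1 in 1, Cpa3 in 0 and Fcer1a in 2. The 6 endothelial markers summed to between 3378 and 6205 in KO and between 1453 and 3038 in WT, and the 6 mesothelial markers to between 4862 and 16889 in KO and between 1392 and 6195 in WT, with 0 of either list past the adjusted threshold. At an unadjusted p under 0.05, 3 endothelial and 5 mesothelial markers were higher in KO, where 5.37% of all genes were. Ranges were separate with KO higher in 2 endothelial and 0 mesothelial markers, against 1.55% of all genes. T cell markers (4 of 5 measured) summed to between 148 and 457 in KO and between 259 and 459 in WT, and 4 B cell markers to between 2116 and 2813 in KO and between 1956 and 4011 in WT. In bulk RNA, fewer cells of a type and less RNA per cell cannot be told apart, and the part of these cells in the Rn45s difference was not tested. The labels name no batch of RNA or library preparation, so a difference in preparation between the groups was not tested.

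Among 7253 genes with a mean at or above the median over genes, predicted symbols left out, 5 followed Rn45s most closely over the 9 libraries, by the root mean square difference of log2 values centred on each gene's own mean. They were Nedd1 (0.138), Atp6v1c1 (0.142), Akr1b10 (0.145), Rnf138 (0.152) and Prkcb (0.155), where the median candidate was at 0.424. Atp6v1c1, a subunit of the proton pump that acidifies lysosomes, averaged 14714 ± 627 in KO and 20492 ± 1528 in WT (SD). Lars2 ranked 35 and Rrn3 78, followed by Npm1 at 1441, Ncl at 2109, Fbl at 2588 and Nop56 at 2746, and by Ubtf at 5707, Nop58 at 6259 and Polr1a at 6715. Polr1b had a mean below the median over genes and so was not ranked, and its difference from Rn45s was 0.840. The measure takes in the difference between genotypes for which Rn45s was chosen, so the ranks are a description.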

How the data were processed

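Per the labels' protocols, poly(A) RNA was captured with oligo-dT beads and sequenced with its strand kept, in 9 libraries. Build mm10 and the tools DESeq2, Partek, HISAT and CASAVA 1.8.2 are named, without a role, in the submitters' processing notes; which annotation and counting rule were used is not given in the sources used here. Each deposited value is a signal: counts divided by 1 factor per library, with values under 1 set to 1, as read from their spacing (100% of values above 1 and below 1000 steps were whole within 0.1 of a step). Libraries had 6.29% to 9.91% of genes at that floor, so no count model was used.

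The test was limma 3.58.1 (R 4.3.3) on log2 of the deposited value plus 1, with a mean-variance trend, no term other than genotype, and Benjamini-Hochberg adjustment (14905 genes, 0.05); this scale understates differences of low genes. Requiring 1 or more in 4 or more libraries removed 0 genes and could remove none, since no deposited value is under 1. The alternative without a filter therefore repeats the fit reported. The fit was also checked on simulated data. Positions come from GENCODE M21 by symbol (9 of the 10 genes) and start regions from RefSeq. Of 3 definitions of transcript length tried in turn, the principal transcript was kept. Named genes are Nucb2, the 10 genes, the 5 most like Rn45s, and members of each list past the threshold or among its 4 smallest p. For the rows listed as RNAs without a poly(A) tail, the 8 highest means are also named. Not all of these named genes are printed. The genes and lists were chosen with earlier results of these data known. Alternatives, 21 in all, are given in the closing section. Python 3.11.15, SciPy 1.17.1 and matplotlib 3.10.9 were used.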

Additional observations from a re-analysis of the deposited data

Results flagged for a closer look

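In 4 of 30 groups of libraries, 1 library stood far from the others by its gap over the group's range, where chance marks about 1 in 20. Rrn3 in KO replicate 5 was at 4791, below the other KO libraries (ratio 0.889, critical value 0.71). Nop58 in WT replicate 4 was at 5340, below the other WT libraries (0.849, critical value 0.829). KO replicate 1 was high in Rpph1, at 394 (0.739), and in Rmrp, at 17.2 (0.758), which was named after its values were seen.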

How the results depend on the processing

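Under all 21 alternatives 0 of the 9 genes other than Rn45s passed the adjusted threshold in limma, where 3 had an unadjusted p under 0.05 in the fit reported. The Rn45s difference was 0 and its share -1e-05 percentage points with quantile normalization, which by construction gives a row of the same rank in every library the same value. Elsewhere the difference kept its sign, and leaving out 1 library gave -0.72 to -0.58 (share -1.13 to -0.829 percentage points).

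The number of genes called over the table, 46, was 0 with only the deeper libraries (1039 had an unadjusted p below 0.05) and 0 with the replicate block, which drops KO replicate 5 (1104 below 0.05); leaving out 1 library gave 5 to 38. With the block Nucb2 was at an adjusted p of 0.0515 (limma), and the 4 mast cell markers were not called. Under that block Rn45s was at -0.64. Deviations of libraries that share a number had correlations of -0.032, 0.112, 0.015 and 0.078 over 6257 genes, and 2 of 4 correlated best with their own number. These correlations are low, and they cannot show whether the numbers pair the libraries. Rescaling to the total without Rn45s raised the median of all genes to 0.08 and gave 52 calls, 67.3% of them higher in KO, against 58.7%.

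Small differences changed sign: Polr1a at 0.0525, Ncl at 0.0322 and Npm1 at 0.0212 with that rescaling; Ncl at 0.0336 and Npm1 at 0.00844 with quantile normalization; Polr1a at 0.133 and Nop56 at -0.0277 with depth class as a term; Polr1b at -0.117 and Nop56 at -0.0896 in the deeper libraries. Leaving out 1 library gave -0.184 to 0.342 for Polr1a, -0.0654 to 0.0331 for Ncl and -0.0448 to 0.101 for Nop56. In the deeper libraries Ubtf was at 0.217 and Nop58 at 0.199, against 0.40 and 0.42. The median of the rows listed as RNAs without a poly(A) tail was at -0.314 with quantile normalization. The cause was not tested. With the longest coding transcript or the union of exons as length, both tried after seeing the data, Npm1 stayed highest per kilobase and Ubtf, Polr1a and Polr1b lowest.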
